A study of Sus scrofa with 8 samples.

Results

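The small RNAs described here are inserts of 27 to 32 nt in exosomes of porcine breast milk, longer than miRNAs and of the lengths that 5′ fragments of tRNAs and Y RNAs take. The members were chosen by length, by count and by their first bases. A member is an adaptor-trimmed insert of 27 to 32 nt without an undetermined base, seen more than 10 times in a library, that does not begin with 1 of 4 leaders. A leader is 1 of the 4 most abundant inserts of exactly 5 nt over all 8 libraries. CGTGA made up 34.4% of the inserts of 5 nt, AAGCT made up 31.1%, TCAAG made up 16.96% and GATCT made up 11.8%. The rule left 4399 distinct tags, out of 76017 distinct tags of 16 to 32 nt that passed the same count minimum in 6 libraries. Tags that share their first 18 nt were joined into 2540 units. Length, count and first bases chose the members, so that their values over all members are given as a description. The member share, the share of the longest lengths and first base G were also tested between colostrum and mature milk. Those tests compare only what the rule kept. The comparison of colostrum with mature milk and the sequence patterns were not part of the rule.

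The samples were milk exosomes of healthy adult Yorkshire sows with no treatment, taken when the infants were 0, 3, 14 and 28 days of age. Exosomes are small vesicles, here precipitated from milk, and their RNA was size selected on a gel before adaptors were ligated. Of 0 days there were 3 libraries, 0d-1 to 0d-3, each from the milk of a single sow, and those of 3, 14 and 28 days (3d, 14d and 28d) each from RNA pooled in equal quantities. Milk was taken from the same 3 sows at all stages, so that the pools are not independent of the 0 days libraries. Libraries of 0 and 3 days are colostrum (n = 4) and those of 14 and 28 days mature milk (n = 2), the division of the study. The libraries of 7 and 21 days had reads of 36 nt, too short to hold all these lengths, and are outside the rule. Only 0 days had replicates, so the stages stood in as replicates of colostrum or mature milk and p-values measure only the spread between these libraries.

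tRNAs carry amino acids to the ribosome, and under stress or in secreted vesicles they are found cleaved in or near the anticodon loop into 5′ and 3′ fragments. Their first stem and D loop share bases at fixed positions, so that a 5′ fragment can be recognised by its letters. Y RNAs are short RNAs bound by the Ro60 protein, and their 5′ and 3′ ends are also found as fragments in body fluids. piRNAs, the small RNAs of the germ line, have similar lengths and often begin with a T in DNA letters or carry an A at base 10.

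The units were numbered by their mean share over the 6 libraries, and 7 of the 10 largest are shown first by their most abundant tag, because they show the kinds of RNA among the members. In units 1, 2 and 6 capitals mark the tRNA pattern, TNGNNNAG followed by GG after 1 or 2 more bases. In unit 7 they mark the Y RNA pattern, GGTCCGA, and in units 3, 5 and 9 the 4 letters that remain of a leader that lacks 1 base.
unit 1: gcatgggTGGTTCAGTGGtagaattctc
unit 2: gcattggTGGTTCAGTGGtagaattct
unit 3: AAGTtggagtgtgacaatggtgtttgt
unit 5: CAAGtacctggttgatcctgccagtag
unit 6: gcattgTGGTTCAGTGGtagaattctc
unit 7: agttGGTCCGAaggctgtgggttattgt
unit 9: AGCTaggcaagatgctggcatagctga
Units 1, 2 and 4 carried the tRNA pattern from base 8, its place in a whole tRNA. Units 6, 8 and 10 carried it from base 7 or 5 and matched unit 2 or 4 with 1 or 3 bases missing. Further tags matched the primers that the study used for reference RNAs in quantitative PCR. The largest unit that matched the Met-tRNA primer is unit 12, with the tRNA pattern in capitals, and the largest that matched the 5S rRNA primer, from the 3′ end of that RNA, is unit 11. No member matched U6 snRNA.
unit 11: ctgggaataccgggtgctgtaggcttt
unit 12: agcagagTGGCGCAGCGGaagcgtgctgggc

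The library 0d-3 stood apart from the other 5. Of its counts at 27 to 32 nt above the minimum, 0.362% began with a leader, against 86.9 to 97.5% in the other libraries. It held 1157372 of the 1284159 member counts (90.1%) and 3718 of the distinct tags. Without it, the other 5 libraries together held 1017 distinct tags in 688 units. All results are therefore given per library, and comparisons are given with and without 0d-3. The reads numbered from 14590531 in 14d to 28141425 in 28d, and 18224844 in 0d-3, within the range of the others. Inserts of 16 to 32 nt without a leader, however, numbered 15271603 in 0d-3 and from 669015 (3d) to 1797199 (28d) in the others. The same count minimum was thus applied at unlike depths, and the member counts and tags of 0d-3 do not come at equal depth.

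The members were a small fraction of the inserts without a leader. As a share of all inserts of 16 to 32 nt without a leader, they were 1.58% in 0d-1, 3.01% in 0d-2, 7.58% in 0d-3, 0.196% in 3d, 1.97% in 14d and 2.35% in 28d. The highest and the lowest share were both in colostrum, and both mature libraries lay between them. These shares depend on the count minimum, which kept 19.04% of the inserts of 27 to 32 nt without a leader in 3d and 92.4% in 0d-3. With no count minimum they were 3.75, 6.09, 8.20, 1.03, 4.16 and 4.57% in the same order, and with tags that begin with a leader included 0d-2 (7.86%) lay above 0d-3 (7.60%). The 95% Wilson intervals, which cover only counting error because copies of a molecule made by PCR were not told apart, reached from 7.57 to 7.59% in 0d-3 and from 0.185 to 0.206% in 3d. Colostrum averaged 3.09 ± 3.21% (SD, n = 4) against 2.16 ± 0.267% (SD, n = 2) for mature milk, a difference of 0.93 percentage points with p = 0.8 in an exact two-sided permutation test over 15 assignments. The smallest p that 4 against 2 libraries allow is 0.0667. Without 0d-3 the direction turned, with a difference of -0.56 points (exact permutation p = 0.7, the smallest possible being 0.1). A share can be higher because these RNAs were more or because other inserts were fewer, which cannot be told apart in these data.

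The number of members differed widely between libraries. There were 325 distinct tags with 17807 counts in 0d-1, 808 with 47326 in 0d-2, 56 with 1308 in 3d, 333 with 18168 in 14d and 691 with 42178 in 28d. The 3d library therefore gave the fewest tags, and each share of it rests on few counts. Just inside the count minimum, at 11 or 12 counts, there were from 11 (3d) to 477 (0d-3) distinct tags, and just outside it, at 9 or 10 counts, from 12 to 609 in the same libraries.

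The lengths showed 1 peak inside the window, in 1 library. The shortest length, 27 nt, held 65.9% of member counts in 0d-1, 51.0% in 0d-2, 35.7% in 0d-3, 87.8% in 3d, 49.8% in 14d and 47.0% in 28d. In all libraries but 0d-3 the share went down with each added base, as the tail of shorter inserts. In 0d-3 it went from 6.59% at 30 nt to 12.04% at 31 nt and then to 1.27% at 32 nt. At 31 nt the tags of unit 2 made up 52.5% of the 0d-3 counts, and the 3 largest units 83.1%. The commonest tag of this length, shown because it forms the peak, extends unit 2 by 4 bases.
unit 2 at 31 nt: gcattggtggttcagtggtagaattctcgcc
Without the members that began with a shortened or altered leader, 27 nt held 30.8% (28d) to 75.6% (3d) of the remaining counts, and the second peak of 0d-3 was 12.2%. Lengths of 30 to 32 nt together held 2.15% of counts in 0d-1, 10.2% in 0d-2, 19.9% in 0d-3, 0.841% in 3d, 16.2% in 14d and 14.1% in 28d. Both mature libraries lay above every colostrum library but 0d-3. The colostrum mean of 8.27 ± 8.79% (SD, n = 4) and the mature mean of 15.1 ± 1.43% (SD, n = 2) differed by -6.88 points (exact permutation p = 0.333, Benjamini-Hochberg adjusted over the 6 shares tested 0.667). Without 0d-3 the difference was -10.75 points (exact permutation p = 0.2).

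**Figure D1:**
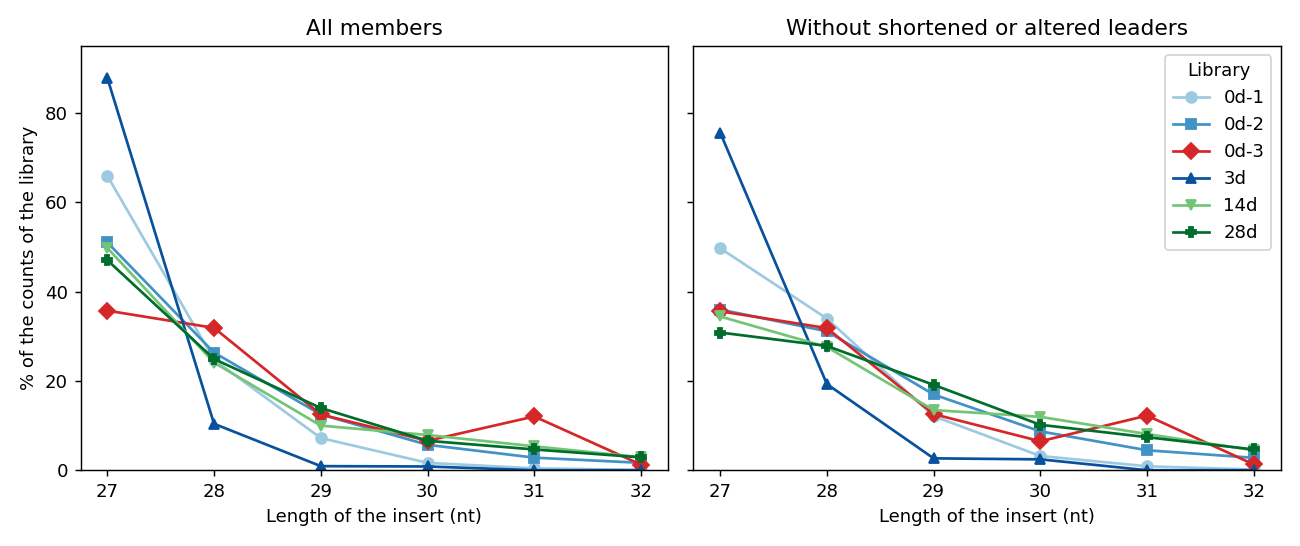
Length of the members in nt (x axis) against the % of member counts of the library (y axis), with 1 line for each of the 6 libraries. The left panel holds all members and the right panel those without a shortened or altered leader. All lines fall from 27 nt, and only that of 0d-3 has a second peak, 12.04% at 31 nt in the left panel.

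G was the commonest first base in 0d-3, 3d and 14d, and A in 0d-1, 0d-2 and 28d. G began 30.8% of member counts in 0d-1, 31.8% in 0d-2, 61.0% in 0d-3, 53.0% in 3d, 33.3% in 14d and 30.2% in 28d. The 4 libraries other than 0d-3 and 3d lay within a few points of each other. Without the members that began with a shortened or altered leader, G began 47.6% of counts in 0d-1, 44.4% in 0d-2, 61.7% in 0d-3, 66.7% in 3d, 43.2% in 14d and 39.4% in 28d. The colostrum mean was 44.1 ± 15.2% (SD, n = 4) and the mature mean 31.7 ± 2.20% (SD, n = 2), with an exact permutation p of 0.333 (adjusted 0.667), and without 0d-3 the difference was 6.79 points in place of 12.41 (p = 0.8, exact permutation). Among tags with the tRNA pattern from base 8, G began between 74.7% (28d) and 91.5% (3d) of the counts. Among all other members it began between 19.1% (28d) and 46.5% (3d).

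The marks of piRNAs did not move together. T began between 10.4% (3d) and 15.7% (28d) of member counts, whereas it began between 25.7% (0d-3) and 45.3% (0d-1) of the counts of inserts of 16 to 26 nt, the lengths of miRNAs. A stood at base 10 in 10.96% (14d) to 14.2% (0d-1) of member counts, against 6.72% (0d-3) to 11.7% (3d) in the shorter inserts, and was commoner among the members in 4 of the 6 libraries. T at base 1 with A at base 10 was found in 0.706% (0d-3) to 2.83% (3d) of member counts. The corresponding range was 2.01 to 2.82% in the inserts of 16 to 26 nt. Tags that ended with CCA, the letters added to the 3′ end of mature tRNAs, held from 0 (3d) to 1.17% (0d-3) of member counts. Among the inserts of 16 to 26 nt they held 1.30% (0d-3) to 16.2% (3d) of counts, more than among the members in every library.

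The tRNA pattern was found mainly at the position that it has in a whole tRNA. From base 8 it was carried by 16.4% of member counts in 0d-1, 20.1% in 0d-2, 51.9% in 0d-3, 14.4% in 3d, 22.5% in 14d and 19.9% in 28d. The library 0d-3 lay above the other 5. The distance depends on the members counted. Without those that began with a shortened or altered leader the share was 52.8% in 0d-3 and 32.5 to 41.9% in the others, and with no count minimum it was 48.9% in 0d-3 and 4.16 to 12.6% in the others. From bases 9 to 16 none held more than 0.151% of counts in any library. The pattern from base 8 was also carried by 35.4% of the counts of 16 to 26 nt in 0d-3, against 0.309 to 0.927% in the other libraries. In every library the pattern held a larger share of members than of these shorter inserts. Inserts of 16 and 17 nt are too short to hold it from base 8, so that part of this difference is fixed by length. Among the members the pattern was present in 817 distinct tags of 222 units, which were 18.6% of all distinct tags.

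By milk class, the share with the pattern from base 8 averaged 25.7 ± 17.6% (SD, n = 4) for colostrum against 21.2 ± 1.79% (SD, n = 2) for mature milk. The difference of 4.51 points had an exact permutation p of 0.933 (adjusted 0.933). Without 0d-3 it turned to -4.22 points (exact permutation p = 0.3), with 16.99 ± 2.89% in colostrum (SD, n = 3). By length, the pattern from any base was commoner among longer tags. In 0d-3 it was carried by 52.1% of counts at 27 nt and 94.3% at 31 nt, and in 28d by 16.6% at 27 nt and 67.3% at 31 nt.

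**Figure D2:**
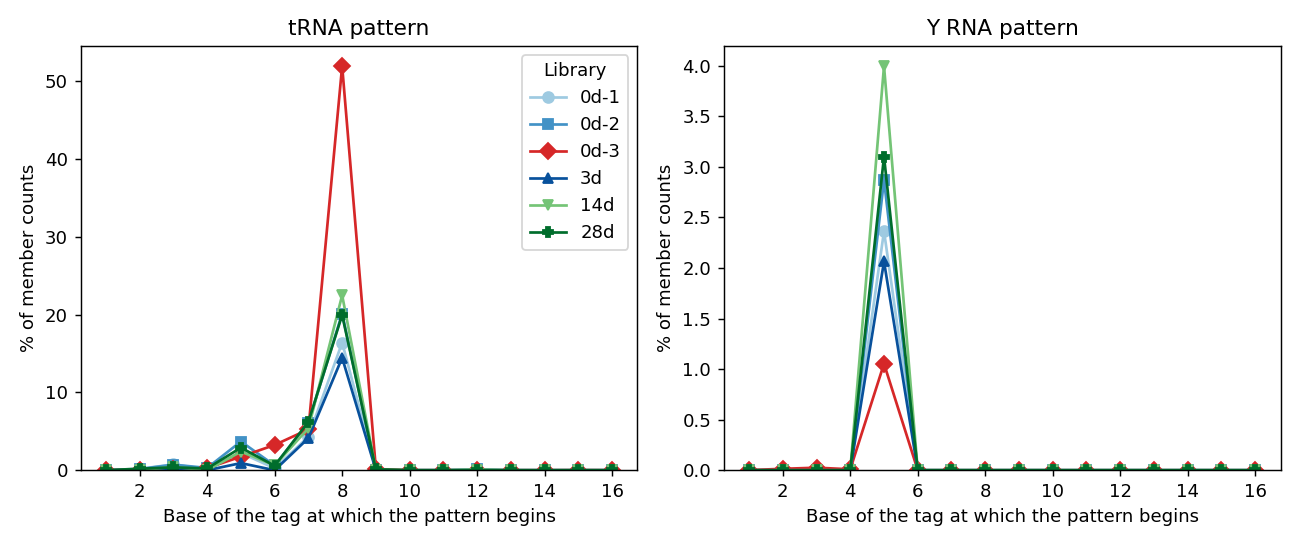
Base of the tag at which the tRNA pattern (left) or the Y RNA pattern (right) begins (x axis) against the % of member counts (y axis), with 1 line per library. The tRNA pattern peaks at base 8, at 51.9% in 0d-3 and between 14.4 and 22.5% in the other libraries, with low shoulders at bases 5 to 7, and the Y RNA pattern stands at base 5.

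By counts, the tRNA units whose anticodon could be read belonged mostly to glycine tRNAs. Overlapping inserts were followed from the end of a tag, base by base, and the anticodon was read from the first loop of 7 bases closed by 5 pairs. From unit 2 this gave 74 bases that end with CCA. They are shown with the anticodon in capitals because it names the tRNA, and they are a composite of several inserts and not a single read.
unit 2 extended: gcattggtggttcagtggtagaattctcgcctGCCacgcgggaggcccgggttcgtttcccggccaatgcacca
The anticodon GCC, at bases 33 to 35, pairs with a codon of glycine. The reverse complement of the first 7 bases of unit 2, ccaatgc, stands just before the last 4 bases of its composite, where the acceptor stem of a tRNA closes. Unit 1, which differs from unit 2 within its first 7 bases, reached the same anticodon over 63 bases and did not reach a CCA end.

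Unit 1 ranked first in every library but 0d-3, where unit 2 did. Unit 1 held 7.20% of member counts in 0d-1, 8.15% in 0d-2, 15.3% in 0d-3, 7.03% in 3d, 8.20% in 14d and 7.61% in 28d. The unit 1 counts behind these shares were 1282, 3855, 177495, 92, 1490 and 3209 in the same order. Outside 0d-3 its share of member counts was thus nearly level over days, whereas its counts were not. A level share of members is not a level amount in the library. Unit 2 held 3.91, 4.46, 19.1, 4.59, 4.46 and 3.27% in the same order. In 0d-3 it passed unit 1, and in the other libraries it lay below it. Unit 4, which also carries the tRNA pattern, held 2.53, 3.22, 6.18, 1.22, 3.85 and 4.16%, with its lowest share in 3d and its highest in 0d-3.

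The ends of the unit 2 fragments differed between 0d-3 and the other libraries. Unit 2 was commonest at 26 nt over the inserts of 18 to 32 nt and at 27 nt within the window, which is inside the anticodon stem of the composite. Its 31-nt form ends at the first base of the anticodon loop, which begins at base 31. It held 22.8% of the inserts of 18 to 32 nt of unit 2 in 0d-3, and from 0 (0d-1) to 3.26% (28d) in the other libraries. Of all inserts of 18 to 32 nt that begin with the 18 nt of unit 2, between 37.9% (3d) and 68.8% (0d-3) were 27 nt or longer. For unit 1 the range was from 41.2% (3d) to 74.6% (0d-3), and for unit 4 from 35.96% (3d) to 98.8% (0d-3). The library 3d was lowest and 0d-3 highest for all 3 units.

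Among the 30 largest units with the pattern from base 8, a set picked after their values were seen, an anticodon was reached for 15. Of these, 12 units gave GCC (glycine), together 11.6% of member counts in 0d-1, 13.2% in 0d-2, 35.8% in 0d-3, 11.6% in 3d, 13.1% in 14d and 11.3% in 28d. Besides units 1 and 2, they differ from unit 1 or 2 in few bases, so that they are not separate readings of the anticodon. As a share of member counts, the sum of these 12 units was thus close to level in all libraries but 0d-3. This sum rests mostly on units 1 and 2, the only ones of the 12 kept in 3d, and several of the others were kept only in 0d-3. Unit 6, whose composite also gave GCC, is not among the 12. Outside 0d-3, tags with a leader less 1 base made up from 28.8% (14d) to 60.5% (3d) of member counts. A share of the other members therefore need not be level. Unit 12, which matched the Met-tRNA primer, held 0.264% in 0d-2, 0.470% in 0d-3, 0.127% in 14d and 0.389% in 28d and had no kept tag in 0d-1 and 3d. Inserts that begin as unit 12 does were seen in 0d-1 and 3d, but none of their tags passed the count minimum. The reads numbered 20468495 in 0d-1 and 21123540 in 3d, against 14590531 in 14d, where 23 counts of unit 12 were kept. Inserts of 16 to 32 nt without a leader numbered 1130170 in 0d-1, 669015 in 3d and 922847 in 14d. The cause of the missing kept tags was not tested.

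Shorter copies of the same tRNA starts were among the largest units. Unit 6 lacks 1 base of unit 2 after the first 6, and held 2.41, 3.22, 1.94, 2.75, 2.67 and 2.88% of member counts in 0d-1, 0d-2, 0d-3, 3d, 14d and 28d. In 0d-3 its ratio to unit 2 was 0.102, and elsewhere it ranged from 0.599 to 0.879. Unit 8 lacks 1 base and unit 10 lacks 3 bases of unit 4. Unit 8 stood to unit 4 as 0.349 in 0d-3, with a range of 0.611 to 1.13 elsewhere. For unit 10 this ratio was 0.135 in 0d-3, with a range of 0.534 to 0.949 elsewhere. In all 3 pairs the ratio was lowest in 0d-3. Whether such tags were gene copies, cleaved RNAs or products of the library steps was not tested.

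The Y RNA pattern was rare and fixed in position. GGTCCGA from base 5 was carried by 2.36% of member counts in 0d-1, 2.87% in 0d-2, 1.05% in 0d-3, 2.06% in 3d, 3.996% in 14d and 3.10% in 28d. Both mature libraries lay above all 4 colostrum libraries. This order was lost without the members that began with a shortened or altered leader, where 3d (5.99%) lay above 28d (5.06%) with an exact permutation p of 0.467, and with tags that begin with a leader included, where 0d-3 (1.05%) was highest. From each of the other bases 1 to 16 the same letters held at most 0.0250% in 0d-3 and no count in the other libraries. The colostrum mean was 2.09 ± 0.765% (SD, n = 4) against a mature mean of 3.55 ± 0.633% (SD, n = 2), with an exact permutation p of 0.133 (adjusted 0.667). Without 0d-3 the difference was -1.12 points in place of -1.46, with p = 0.1 in the exact permutation test, the smallest possible with 3 against 2. With each distinct tag counted once the direction turned, to a difference of 0.15 points.

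Nearly all Y RNA counts came from 1 unit. The pattern was found in 33 distinct tags of 11 units, and unit 7 held 2.36, 2.80, 0.952, 2.06, 3.996 and 3.07% of member counts in 0d-1, 0d-2, 0d-3, 3d, 14d and 28d. Only between 6.52% (3d) and 32.2% (0d-2) of all inserts of 18 to 32 nt that begin as unit 7 does were 27 nt or longer, and its commonest length was 26 nt in 0d-1 and 0d-2 and 23 nt in the other 4 libraries. In the inserts of 16 to 26 nt, the pattern from base 5 held between 0.182% (3d) and 0.900% (14d) of counts. The unit was not matched to a particular Y RNA, since no sequences of pig Y RNAs were used here.

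A large class of members in 5 libraries began with a leader that lacked 1 base. The 4 leaders less any 1 base give 18 different starts of 4 letters, which are 7.03% of all starts of 4 letters. Members without the tRNA or Y RNA pattern that began with 1 of them held 43.7% of member counts in 0d-1, 33.9% in 0d-2, 0.586% in 0d-3, 60.5% in 3d, 28.8% in 14d and 32.4% in 28d. The same letters from bases 5, 9 and 13, counted over all members whatever their pattern, held from 1.06 to 9.07% of member counts. At the first base the class lay above this range in the 5 libraries. It lay below it in 0d-3, but the sets are unlike. The class leaves out tags with either pattern, and the rule removed full leaders only at the first base. At 27 nt it made up 50.1 to 66.1% of counts in these 5 libraries and 0.419% in 0d-3. A further 5.05 to 8.72% of counts in the 5 libraries, and 1.10% in 0d-3, began with a leader that had 1 base replaced.

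The length of what followed the 4 letters is bound by the rule. The 3 largest of these sequences are shown by their commonest insert without any leader, of 22 or 23 nt.
RNA A: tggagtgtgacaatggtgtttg
RNA B: tacctggttgatcctgccagtag
RNA C: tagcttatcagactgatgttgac
RNA A followed 12 different 4-letter starts and held 10.99% of member counts in 0d-1, 8.41% in 0d-2, 0 in 0d-3, 30.4% in 3d, 6.67% in 14d and 6.76% in 28d. RNA B followed 16 starts and held 15.5, 8.86, 0, 12.003, 11.9 and 11.3% in the same order. Its letters are those with which 18S rRNA begins in vertebrates. RNA C, which followed 13 starts, is miR-21-5p by its primer sequence and held between 1.25% (14d) and 7.65% (3d) in the 5 libraries and no count in 0d-3. These shares count only copies behind a shortened leader. Without any leader, RNA C had 20895 counts in 0d-3 and 1971 (14d) to 4665 (28d) elsewhere. RNA B had 4085 such counts in 0d-3 and 329 (3d) to 2095 (0d-1) elsewhere. For RNA A there were 6 in 0d-3 and 38 (3d) to 226 (0d-2) elsewhere.

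RNAs A, B and C were also abundant behind the full leader outside 0d-3. After a full leader, RNA A had 55251 counts in 0d-1, 107942 in 0d-2, 1 in 0d-3, 52332 in 3d, 37951 in 14d and 76773 in 28d, and after a shortened leader 1957, 3981, 0, 398, 1211 and 2853. Tags of the full leader are not members. Units 3, 5 and 9 began with a shortened leader and had no member count in 0d-3. The remainder of unit 9 went the other way and followed only 1 shortened start. It had more counts there than after the full leader in all libraries but 0d-3, as 588 against 295 in 0d-1 and 755 against 390 in 0d-2. Whether the leaders come from the library steps was not tested.

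**Figure D3:**
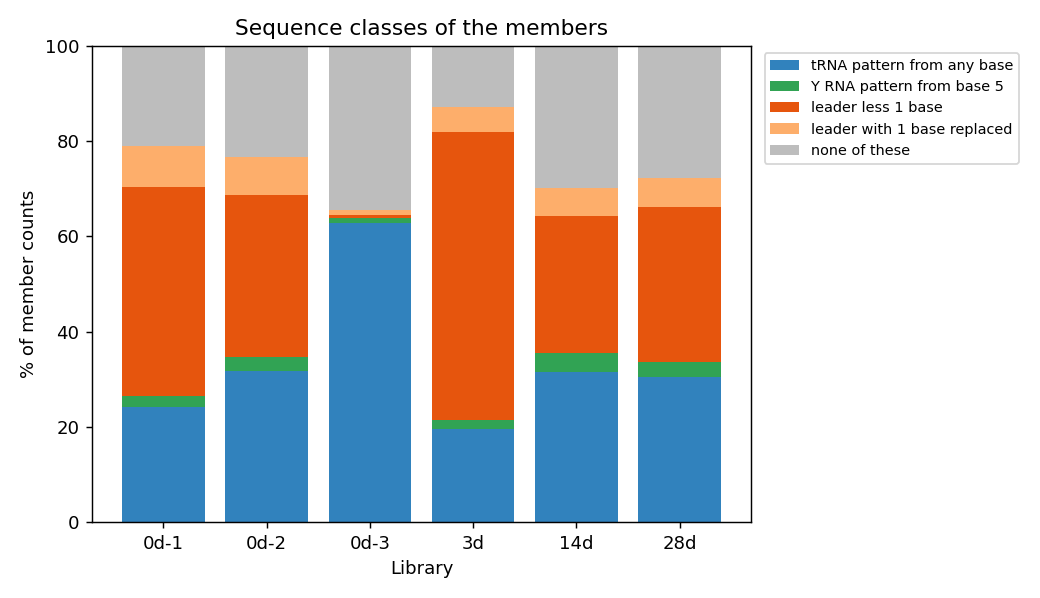
The 6 libraries (x axis) against the % of member counts (y axis, stacked to 100) in 5 classes of tags. The tRNA pattern from any base holds 62.8% in 0d-3 and 19.5 to 31.8% in the other libraries, and the leader less 1 base holds 0.586% in 0d-3 and 28.8 to 60.5% in the others.

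Members in none of these classes were 2400 distinct tags and held 20.9% of member counts in 0d-1, 23.3% in 0d-2, 34.5% in 0d-3, 12.9% in 3d, 29.8% in 14d and 27.7% in 28d. The unit with the largest mean share among them was picked after its values were seen, and its commonest tag is given because overlapping inserts extended it.
unit of no class: cggccctggcggagcgctgagaagacggtc
It held 0.236% in 0d-1, 0.423% in 0d-2, 0.00181% in 0d-3, 2.06% in 3d, 5.25% in 14d and 1.88% in 28d. The 0 days libraries were lowest and 14d highest. Its mean rests on 14d, and in 0d-1, 0d-2, 0d-3 and 3d another unit of no class was larger, with 1.97, 1.29, 0.229 and 2.83%. Overlapping inserts gave a composite of 110 bases, which is not a single read, and whether its inserts come from 1 RNA was not tested.

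**Figure D4:**
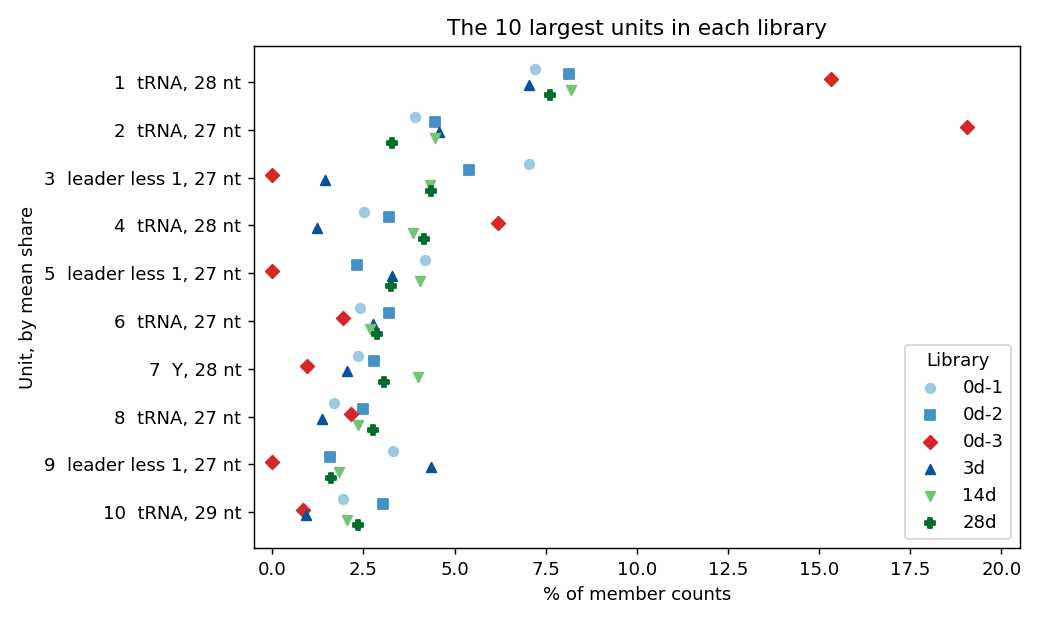
Share of each of the 10 largest units (y axis, numbered by their mean share, with the class and the length of their commonest tag) in % of member counts (x axis), with 1 marker per library. Units 1 and 2 stand at 15.3 and 19.1% in 0d-3 and between 3.27 and 8.20% in the other libraries, and units 3, 5 and 9 are at 0 in 0d-3.

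How far the counts were concentrated in few units depended on the count minimum. The 10 largest units of a library held 36.9% of its member counts in 0d-1, 36.7% in 0d-2, 57.0% in 0d-3, 48.9% in 3d, 42.4% in 14d and 35.6% in 28d. The 2 highest values were in 0d-3, which has most members, and in 3d, which has fewest. When no minimum was set they were 16.2, 18.7, 52.8, 10.1, 20.97 and 18.99% in the same order, so that 3d became the lowest. In inserts of 16 to 26 nt the 10 largest units held from 28.1% (28d) to 59.5% (0d-3). Units that together held 50% of counts numbered 20 in 0d-1, 25 in 0d-2, 7 in 0d-3, 11 in 3d, 14 in 14d and 23 in 28d. The difference between colostrum (44.9 ± 9.87%, SD, n = 4) and mature milk (39.0 ± 4.81%, SD, n = 2) had an exact permutation p of 0.533 (adjusted 0.8). Without 0d-3 it was 1.85 points in place of 5.89 (exact permutation p = 0.8).

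Most tags passed the count minimum in 1 library only, whereas a few shared units held a large part of the counts. Of the 4399 tags, 3713 (84.4%) were kept in 1 library only, and 3382 of these were tags of 0d-3. In 0d-3 its private tags held 21.2% of member counts. In the other libraries, private tags held from 0 (3d) to 6.70% (0d-2). The 16 units kept in all 6 libraries held 29.2% of member counts in 0d-1, 33.2% in 0d-2, 51.0% in 0d-3, 33.4% in 3d, 38.4% in 14d and 32.9% in 28d. Sharing depends on the count minimum, since at any count 1818 of the 4399 tags were seen in 1 library only and 217 in all 6, against 19 kept in all 6.

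The libraries ranked the units more alike with each other than with 0d-3. Over 168 units seen in all 6 libraries, a description with no test, Spearman's rho reached 0.877 for the pair of 0d-1 and 0d-2 and 0.919 for 14d and 28d, with a range of 0.671 to 0.887 over the remaining pairs without 0d-3. Pairs with 0d-3 had from 0.332 (3d) to 0.489 (0d-2). The points share the library and its depth. Units of 0d-1 were kept in 0d-2 in 92.9% of cases, and those of 0d-2 in 0d-1 in 40.4%.

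**Figure D5:**
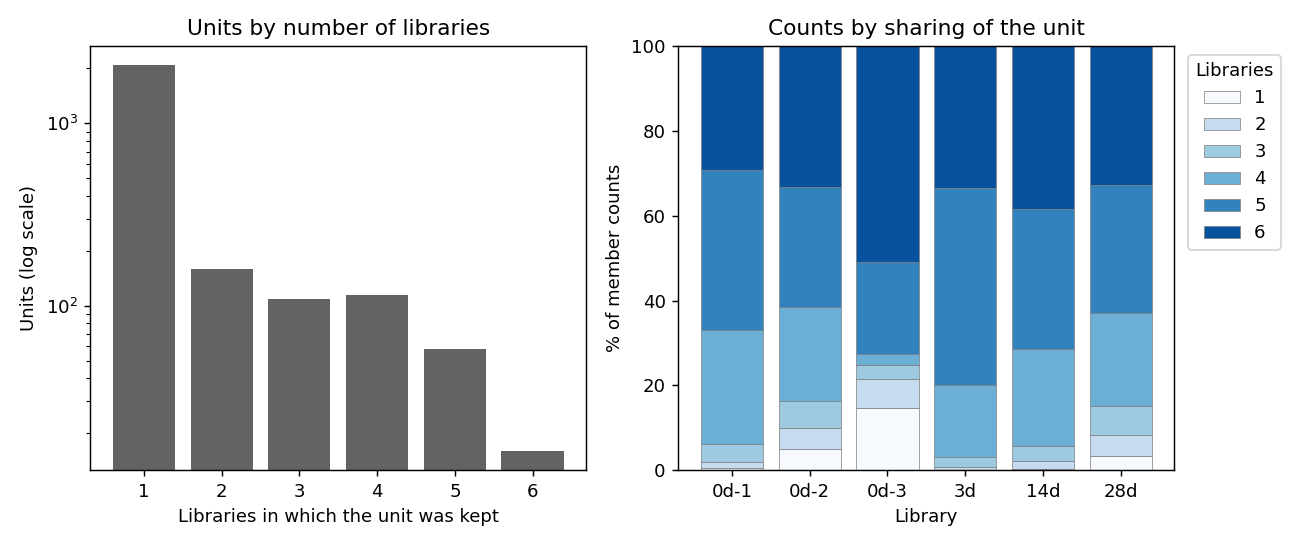
Left, the number of libraries in which a unit was kept (x axis) against the number of units (y axis, log scale). Right, the 6 libraries (x axis) against the % of member counts (y axis, stacked to 100) held by units kept in 1 to 6 libraries. The 16 units kept in all 6 libraries hold 29.2 to 51.0% of counts.

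No unit passed the test between colostrum and mature milk. The unit counts were compared with edgeR's quasi-likelihood test over 24108 units of 16 to 32 nt, of which 495 were member units, since the filter on low counts removed the other member units. With Benjamini-Hochberg adjustment over all units, 0 units were called (0%), members included, and the same holds for DESeq2. At an unadjusted p under 0.05 there were 237 units in edgeR (0.983% of those tested), of which 3 were member units, and 501 in DESeq2 (2.08%), of which 6 were. The share among member units was 0.606% in edgeR, no higher than that of all units. In edgeR without 0d-3, 1040 of 21479 units (4.84%) and 25 of 404 member units (6.19%) had such a p, and none passed the adjustment. All 25 were lower in colostrum, but the directions of all 1040 were not counted, so that this cannot be called particular to the members. With leaders also left out, 694 of 6681 units and 19 of 359 member units (5.29%) had such a p. The share was then smaller among member units than among all units.

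The named units showed the width of this limit. For unit 2 the log2 fold change of colostrum over mature milk was 4.33 ± 3.49 (SE), with an adjusted p of 0.99997 in edgeR, and without 0d-3 it was -0.54 ± 1.0004 with an adjusted p of 0.996. For unit 1 the values were 3.03 ± 3.23 with all libraries and -0.79 ± 1.04 without 0d-3, with the same adjusted p. For unit 7, with the Y RNA pattern, they were 0.59 ± 2.73 and -1.13 ± 1.04. The fitted value was above 0 for 9 of the 12 named units with all libraries, and below 0 for all 12 without 0d-3. The sign thus depended on 0d-3 for 9 of the named units, whereas units 3, 5 and 9 were below 0 with and without it. Each of these values lay within 2 SE of 0.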

How the data were processed

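The authors deposited, for each of 8 libraries, the count of every distinct read, with identical reads combined and not normalized. The mapping and RNA class filters of the study's methods were not in these tables. Reads still held the adaptor, which was cut at its first 8 nt. Exact permutation tests compared 6 shares, with Benjamini-Hochberg adjustment over them. Units of 16 to 32 nt, leaders included, were tested with edgeR 4.0.16 (R 4.3.3, quasi-likelihood, TMM, filterByExpr, threshold 0.05), with DESeq2 1.42.0 as an alternative. SE are the log2 fold change divided by the root of F. Composites needed an overlap of 12 bases, 50 counts and a majority of 60% per base. Python 3.11.15, numpy 2.4.6, pandas 2.3.3, scipy 1.17.1 and biopython 1.88 were used.

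The members and lists were chosen with earlier results of these data known. Named units are the 10 largest by mean share, the largest of each library, the largest that match Met-tRNA, 5S rRNA or U6 snRNA primers, and the 5 largest rises and falls past the threshold, of which there were none. No genome or small RNA catalogue was used. Alternatives were other count minimums, an adaptor match of 6 nt, leaders included, tags counted once, other totals, thinning to 1308 counts, other normalizations, no filter, single tags and leaving out each library. Leaving out shortened or altered leaders, the pattern from any base and all alternatives on sharing were chosen after seeing the data. On simulated counts for the 24108 units, edgeR recovered 200 of 200 units changed by a log2 fold of 4 at a dispersion of 0.1, with 10 false calls, and 0 at a dispersion of 2.06, near the 2.29 of the fit. The permutation code gave its smallest p in 7.5% of 2000 unchanged comparisons. The libraries held 14590531 to 28141425 reads. The sequence and identity of 1 item are not reported here.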

Additional observations from a re-analysis of the deposited data

Results flagged for a closer look

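For 0d-3, 3 values lay farther from the other colostrum libraries than Dixon's 95% critical value for 4 libraries allows. These were its share with the tRNA pattern from base 8 (51.9%), that of unit 1 (15.3%) and that of unit 2 (19.1%). Of 21 measures examined in this way 3 stood out, all in 0d-3, and chance gives about 1 in 20. They are not separate results, since units 1 and 2 are part of that share, and 0d-3 was already known to stand apart. The libraries 7d and 21d, with reads of 36 nt, were outside the rule. With the same count minimum and without leaders, they held 181 counts (7d, 12 distinct tags) and 5076 counts (21d, 93 distinct tags) at 27 and 28 nt. Units found among the members held 100% of these counts in 7d and 99.2% in 21d. The tRNA pattern from base 8 was carried by 21.5% of them in 7d and 14.5% in 21d, and the largest unit of 21d (19.1%) was the one of no class that was highest in 14d among the members.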

How the results depend on the processing

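No alternative brought any of the 6 shares or any unit past a threshold, which the design of 4 against 2 could not reach for the shares. Of 75 alternative values of the shares, 69 kept their direction. Differences are colostrum minus mature milk, in percentage points. Including tags with a leader turned the member share to -0.45 and the share of 30 to 32 nt to 2.55. A count minimum of more than 100, at which 3d held no member, turned the share of the 10 largest units to -0.93, and counting each tag once turned the Y RNA share to 0.15. Leaving out 0d-3 turned the member share to -0.56 and the tRNA share to -4.22. Over all single libraries left out, the member share ranged from -0.56 to 1.90, the share of 30 to 32 nt from -10.75 to -4.40, first base G from 6.79 to 16.87, the 10 largest units from 1.85 to 9.29, the tRNA share from -4.22 to 8.27 and the Y RNA share from -1.91 to -1.01. The exact permutation p ranged from 0.0667 to 1 over these alternatives. The units kept in all 6 libraries, 16 here, were 0 with more than 100 counts and 218 with no minimum. Of 108 alternative mean shares of the named units, 95 moved by less than 1 SD. The cause of these changes was not tested. The 3d library, with 1308 member counts, limits what can be detected there. No paired analysis was possible because the libraries of 3, 14 and 28 days pool sows and the groups share fewer than 2 replicate numbers.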
